A study of Homo sapiens with 3 samples.

Results

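The proteasome genes described here are the rows of 1 deposited expression table whose symbol is PSM, a letter from A to G and a number. The rule used the symbol only and found 43 of the 12040 genes in the table. RefSeq names 48 human protein-coding genes by this pattern, and the 5 others, PSMA8, PSMB8, PSMB9, PSMB11 and PSMD5, were not analysed here.

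The series used knockdown of DICER1, which dices miRNA precursors, to ask how DICER1 binding affects transcripts in HEK293 cells, an established line from human embryonic kidney. Poly(A) RNA was sequenced from 3 libraries, 1 per group: cells depleted of DICER1, cells depleted of DROSHA, and mock-transfected cells. DROSHA acts before DICER1 in making miRNAs and served as a control beside the mock. All 3 cultures were of 1 T-REx Flp-In strain that carries a FLAG-tagged DICER1 transgene, so the mock carried it too, and all were treated by transfection for RNA interference. Every title also carries the label 2.5d, which no label explains. No label says whether the transgene was switched on. There were no replicates, so no value has a replicate error or a p-value. The depth of the libraries is unknown.

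The proteasome is the large protease that degrades proteins marked with ubiquitin. Its barrel, the 20S core particle, has outer rings of alpha subunits (the PSMA genes), which gate entry, and inner rings of beta subunits (the PSMB genes), some of which cut peptide bonds. A 19S regulatory particle of ATPases (the PSMC genes) and non-ATPase subunits (most PSMD genes) binds the ubiquitin chain, removes it and threads the substrate into the barrel. Other members are assembly chaperones (the PSMG genes, PSMD9 and PSMD10), alternative activators that cap the barrel (the PSME genes) and the inhibitor PSMF1. Subunit genes are known to be transcribed in concert, largely through the factor NFE2L1, and interferon induces replacement catalytic subunits, including PSMB10, and the activators PSME1 and PSME2.

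The table does not name its columns. It holds 3 columns of levels, which could be matched to no library and gave no result here, and 2 columns of the authors' log2 fold changes. Both fold changes have the same denominator level, with 1 added to each level before the ratio. In table order these are the first and second deposited comparison below, and neither is assigned to a knockdown. For DICER1 the authors' deposited table gives -1.32 (first) and 0.58 (second), and for DROSHA -0.11 (first) and -1.65 (second). Of 6 markers known from HEK293, NES, NEFM and PAX2 were not analysed here. INA, a neuronal intermediate filament gene, rose in one comparison, at 1.05 (first), and fell in the other, at -0.57 (second), by the authors' deposited table. The authors' deposited table has VIM at 0.48 (first) and -0.16 (second), and LIN28B at 0.12 (first) and -0.25 (second). The 6 immune cell markers on the list were not analysed either. The words rose and fell are kept for log2 values of at least 0.5 in size. This threshold describes single libraries and is no test. Poly(A) libraries give relative levels, so a change in the RNA content of the cells cannot be told apart from one in a single gene.

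In the first comparison the alpha subunits of the barrel and most subunits of the regulatory particle lay on the low side, by small amounts. Of the 6 assembly factors 5 were above 0, as were PSMB10 and PSMF1, while the constitutive beta subunits (4 of 7 above 0) and the activators (2 of 4) lay on both sides. Of the 43 genes, 1 fell and 0 rose past the threshold, where 2.04% of all genes fell and 1.46% rose. The median was -0.051, against 0.030 over all 12040 genes. Values above 0 were found for 16 members (37.2%), against 56.5% of all genes, and 32 members (74.4%) lay below the median of all genes. The 31 core subunits (alpha, constitutive beta, ATPase and non-ATPase) had a median of -0.12 with 7 above 0. The 12 other members had a median of 0.14 with 9 above 0. The members ranged from -0.54 to 0.40 with an interquartile range of 0.23, and that of all genes was 0.25.

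**Figure D1:**
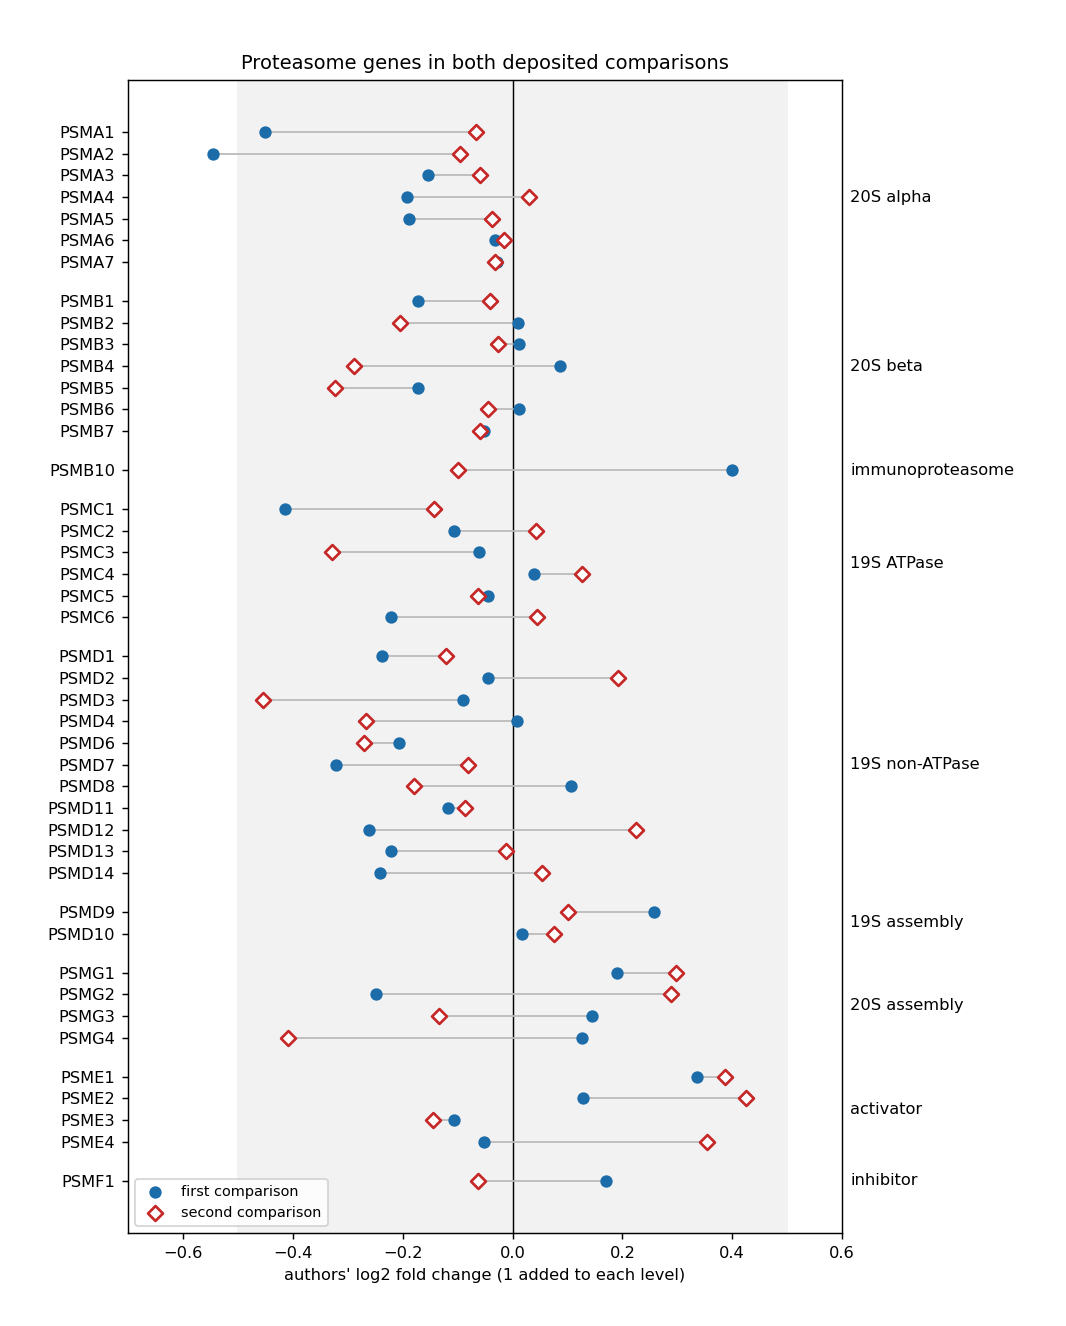
Authors' log2 fold change (x axis) of each of the 43 proteasome genes (y axis, grouped by role) in the first (filled circles) and second (open diamonds) deposited comparison; the grey band spans less than 0.5 in size and grey lines join the values of a gene. Only PSMA2 lies outside the band, at -0.54 in the first comparison, and all 7 alpha subunits lie below 0 there.

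All 7 alpha subunit genes had values below 0 in the first comparison, with a median of -0.19. PSMA2 fell, at -0.54 in the authors' deposited table, or 0.686 times the denominator, and lay above only 1.62% of all genes. PSMA1 followed at -0.45 in the authors' deposited table, above 2.61% of all genes, and was short of the threshold. PSMA4 and PSMA5 were both at -0.19 and PSMA3 at -0.15 in the authors' deposited table. PSMA6, at -0.031, and PSMA7, at -0.028, were near 0 in the authors' deposited table. The ring is built of these 7 different proteins side by side, and their transcripts did not share 1 size of difference.

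The constitutive beta subunit genes lay closer to 0, with a median of 0.0097 and 4 of 7 above 0. The catalytic ones are PSMB5, with chymotrypsin-like activity, PSMB6, which cuts after acidic residues, and PSMB7, which cuts after basic ones. In the authors' deposited table they were at -0.17, 0.012 and -0.051. Of the non-catalytic ones, PSMB1 was at -0.17, PSMB2 at 0.0097, PSMB3 at 0.011 and PSMB4 at 0.086 in the authors' deposited table. PSMB10, the interferon-induced subunit that takes the place of PSMB7 in the immunoproteasome, was the highest of all 43 members at 0.40 in the authors' deposited table. It lay above 96.7% of all genes, and was short of the threshold.

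Of the 17 subunit genes of the 19S particle, 14 had values below 0 in the first comparison and the median was -0.12. The ATPases unfold the substrate, and PSMC1 was their lowest at -0.41 in the authors' deposited table. PSMC6 was at -0.22, PSMC2 at -0.11, PSMC3 at -0.061, PSMC5 at -0.045 and PSMC4 at 0.039 in the authors' deposited table. Among the non-ATPase subunits, PSMD7 and PSMD14 form the pair that holds the deubiquitinating site, and stood at -0.32 and -0.24 in the authors' deposited table. PSMD1 and PSMD2, large scaffold subunits that contact the ATPases, had log2 values of -0.24 and -0.044 in the authors' deposited table. PSMD4, a ubiquitin receptor, had a log2 value of 0.0080 in the authors' deposited table. The lid subunits, which surround the deubiquitinase, ran in the authors' deposited table from -0.26 for PSMD12 through -0.22 for PSMD13, -0.21 for PSMD6, -0.12 for PSMD11 and -0.091 for PSMD3 to 0.11 for PSMD8.

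Assembly factors, activators and the inhibitor held 8 of the 16 positive values of the first comparison. PSMG1 and PSMG2 form a dimer that starts the alpha ring, but their transcripts lay on opposite sides of 0, at 0.19 and -0.25 in the authors' deposited table. PSMG3 and PSMG4 form the other dimer of ring assembly and had log2 values of 0.14 and 0.13 in the authors' deposited table. PSMD9 and PSMD10, chaperones of the ATPase ring, had log2 values of 0.26 and 0.018 in the authors' deposited table. PSME1 and PSME2 encode the partner subunits of the interferon-induced activator, with log2 values of 0.34 for PSME1 and 0.13 for PSME2 in the authors' deposited table. The nuclear activators PSME3 and PSME4 had log2 values of -0.11 and -0.051 in the authors' deposited table, and the inhibitor PSMF1 at 0.17.

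In the second comparison no member passed the threshold, where 2.33% of all genes rose and 5.59% fell. The median of the 43 members was -0.059, against 0.0063 over all genes, and 14 (32.6%) lay above 0, against 51.1% of all genes. At a log2 value of 0.25 in size, 5 members lay on the high and 7 on the low side, where 1806 and 2188 of all 12040 genes did. The middle of the family was narrow, with an interquartile range of 0.19 against 0.34 for all genes. The 12 members outside the core had a median of 0.088, and the 31 core subunits one of -0.060.

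The 3 highest members of the second comparison were activators. PSME2 was at 0.43 and PSME1 at 0.39 in the authors' deposited table, above 95.7% and 94.1% of all genes. PSME4, which caps proteasomes in the nucleus, followed at 0.35 in the authors' deposited table. PSME3 alone of the 4 was below 0, at -0.14 in the authors' deposited table. PSMG1 and PSMG2 were the next highest, at 0.30 and 0.29 in the authors' deposited table. Their fellow ring chaperones were low there, PSMG3 at -0.13 and PSMG4 at -0.41 in the authors' deposited table. PSMD9 was at 0.10, PSMD10 at 0.075 and PSMF1 at -0.062 in the authors' deposited table.

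PSMD3, a lid subunit, was the lowest member of the second comparison at -0.46 in the authors' deposited table, or 0.730 times the denominator. The lid genes lay on both sides of 0. In the authors' deposited table PSMD6 was at -0.27, PSMD8 at -0.18, PSMD11 at -0.086, PSMD7 at -0.082, PSMD13 at -0.011, PSMD14 at 0.054 and PSMD12 at 0.22. The ubiquitin receptor PSMD4 was at -0.27 and the scaffold subunits PSMD1 and PSMD2 at -0.12 and 0.19 in the authors' deposited table. Of the ATPases, PSMC3 had the lowest value, -0.33, and PSMC4 the highest, 0.13, in the authors' deposited table. The other 4 lay in the authors' deposited table at -0.14 for PSMC1, -0.063 for PSMC5, 0.042 for PSMC2 and 0.045 for PSMC6.

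Of the 14 constitutive barrel genes, 13 were below 0 in the second comparison. The alpha subunit genes lay between -0.096 for PSMA2 and 0.029 for PSMA4 in the authors' deposited table, a narrower span than in the first comparison. The other alpha genes there were PSMA1 at -0.066, PSMA3 at -0.060, PSMA5 at -0.038, PSMA7 at -0.032 and PSMA6 at -0.016 in the authors' deposited table. All 7 constitutive beta subunit genes were below 0, with a median of -0.059. Catalytic PSMB5 was their lowest at -0.32 in the authors' deposited table, while PSMB6 and PSMB7 were at -0.044 and -0.059. PSMB4 was at -0.29, PSMB2 at -0.21, PSMB1 at -0.041 and PSMB3 at -0.026 in the authors' deposited table. PSMB10 was at -0.099 in the authors' deposited table.

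**Figure D2:**
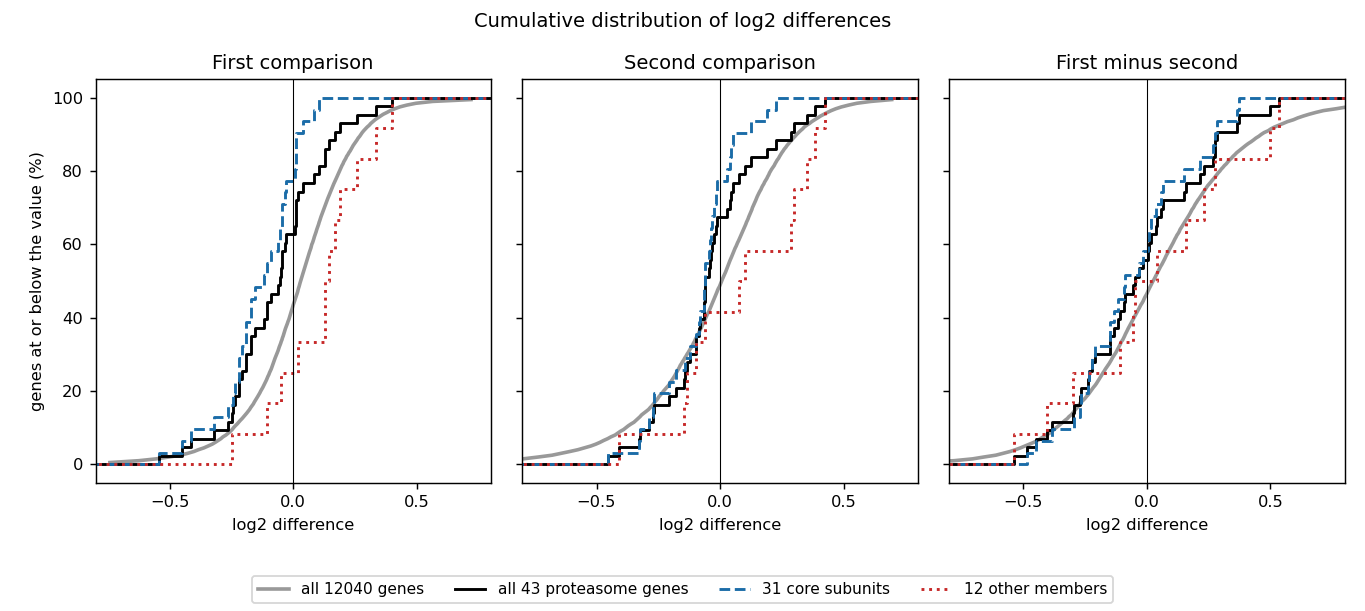
Cumulative share of genes (y axis, percent) at or below each log2 difference (x axis) in the first comparison, the second comparison and the first minus the second, for all 12040 genes (grey), the 43 proteasome genes (black), the 31 core subunits (blue dashes) and the 12 other members (red dots). In the first comparison 24 of 31 core subunits, but 3 of the 12 other members, lie below 0.

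The comparisons share their denominator library, so the second fold change was subtracted from the first. This difference compares the numerator libraries, since the shared one cancels. Over the 43 members its median was -0.050, against 0.025 over all genes. PSMG4 stood at 0.54 and PSMG2 at -0.54, the 1 member past the threshold on the high side and the 1 on the low side. Of all genes, 8.6% rose and 4.82% fell in this difference. Both are chaperones of the alpha ring, in different dimers. Just short of the threshold were PSMB10 at 0.4988 and PSMD12 at -0.487. The alpha genes had a median difference of -0.15, with PSMA2 at -0.45 and 1 of 7 above 0. The constitutive beta genes had one of 0.056, with PSMB4 the highest at 0.375 and 6 of 7 above 0. The 17 subunits of the 19S particle ranged from PSMD12 to PSMD3, at 0.36, with 6 above 0.

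**Figure D3:**
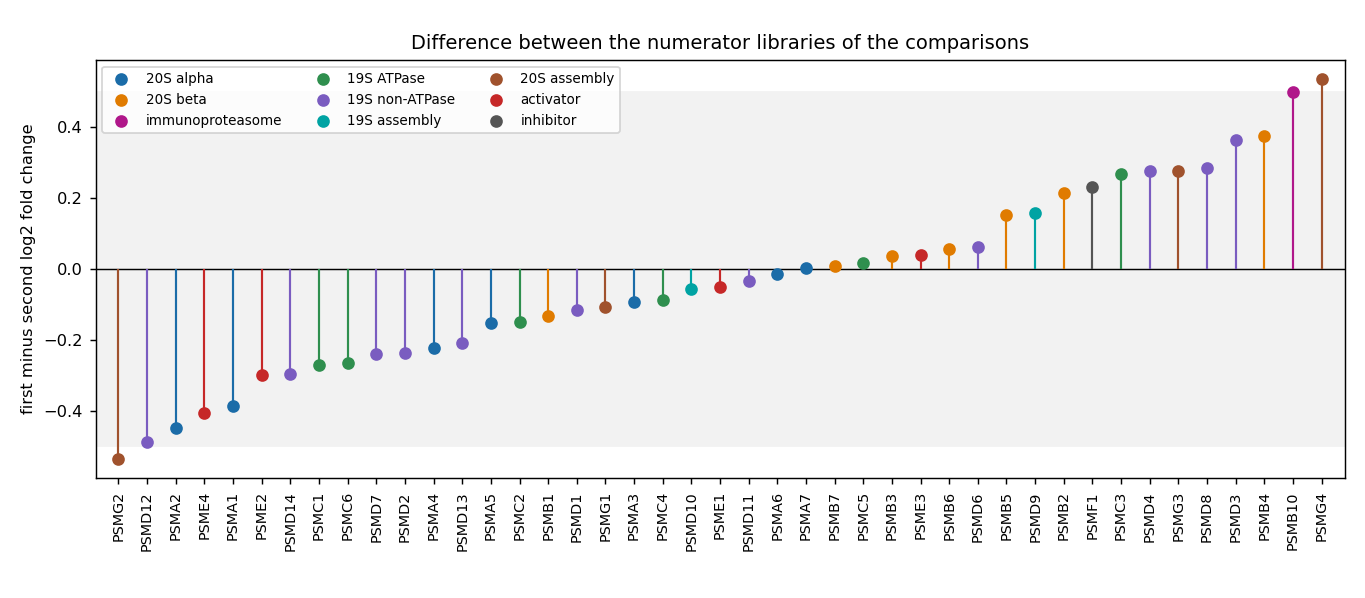
First minus second log2 fold change (y axis) of the 43 proteasome genes, in order of value and coloured by role; the grey band spans less than 0.5 in size. PSMG2 at -0.54 and PSMG4 at 0.54 lie outside the band, and PSMB10 at 0.4988 lies on its edge.

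Promoter windows show the starts of the genes at either end of the comparisons: PSMB10 and PSMA2, the highest and lowest of the first, PSME2 and PSMD3, those of the second, and PSME1, the partner of PSME2. Each window runs from 250 bases before to 50 after the annotated start, 5′ to 3′ on the gene's strand, from RefSeq on GRCh38.p14. That build is later than the hg19 of the submitters' processing notes, and the windows were matched by symbol. Capitals mark matches on either strand to GAAA, any 2 bases and GAAA again, a core of the interferon response element, and to TGACNNNGC, where N is any base, a core of the antioxidant response element to which NFE2L1 binds. The search did not ask whether matches overlap.
PSMB10, chr16:67936801-67937100, minus strand: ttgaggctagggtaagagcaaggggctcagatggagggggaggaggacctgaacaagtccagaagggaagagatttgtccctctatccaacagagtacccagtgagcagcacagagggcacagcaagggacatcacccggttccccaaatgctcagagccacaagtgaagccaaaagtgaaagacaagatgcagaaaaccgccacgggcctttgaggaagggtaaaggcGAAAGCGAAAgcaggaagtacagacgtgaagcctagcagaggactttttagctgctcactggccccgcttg
PSME1, chr14:24135944-24136243, plus strand: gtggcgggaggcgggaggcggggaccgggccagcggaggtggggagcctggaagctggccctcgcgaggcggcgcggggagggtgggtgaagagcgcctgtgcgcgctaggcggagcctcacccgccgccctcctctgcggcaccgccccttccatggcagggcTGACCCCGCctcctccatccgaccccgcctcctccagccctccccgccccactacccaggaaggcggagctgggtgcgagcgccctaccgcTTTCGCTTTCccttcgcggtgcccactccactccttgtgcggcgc
PSME2, chr14:24146561-24146860, minus strand: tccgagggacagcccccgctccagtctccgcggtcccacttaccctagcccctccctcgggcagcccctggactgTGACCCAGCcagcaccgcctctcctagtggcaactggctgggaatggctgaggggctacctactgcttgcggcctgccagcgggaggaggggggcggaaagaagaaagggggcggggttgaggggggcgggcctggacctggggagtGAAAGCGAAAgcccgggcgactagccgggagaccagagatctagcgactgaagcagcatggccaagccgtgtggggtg
PSMD3, chr17:39980557-39980856, plus strand: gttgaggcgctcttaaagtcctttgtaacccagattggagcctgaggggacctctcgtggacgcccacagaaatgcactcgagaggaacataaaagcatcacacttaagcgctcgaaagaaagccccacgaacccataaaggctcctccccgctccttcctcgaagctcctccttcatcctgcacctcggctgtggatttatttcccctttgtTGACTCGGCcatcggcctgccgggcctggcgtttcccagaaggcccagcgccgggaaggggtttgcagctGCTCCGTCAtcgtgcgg
PSMA2, chr7:42932125-42932424, minus strand: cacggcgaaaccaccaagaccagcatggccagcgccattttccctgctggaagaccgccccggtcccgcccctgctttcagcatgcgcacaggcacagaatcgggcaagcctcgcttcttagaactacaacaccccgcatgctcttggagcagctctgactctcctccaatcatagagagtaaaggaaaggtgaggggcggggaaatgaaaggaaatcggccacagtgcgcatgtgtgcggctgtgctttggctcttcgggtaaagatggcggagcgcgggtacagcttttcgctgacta

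PSMB10 and PSME2 carry the same letters, GAAAGCGAAA, starting 21 and 28 bases before the start, and PSME1 carries a match on the other strand 5 bases after it. PSMD3 holds the TGACNNNGC pattern in 2 places, PSME1 and PSME2 hold it in 1 each, and the PSMA2 window has neither. Of the 43 members, 37 had a RefSeq promoter. The paired GAAA pattern was found for 6 of the 37 (16.2%), against 3.58% of the 8633 genes of the expression table with a promoter there. The other 3 were PSMG4, PSMB4 and PSMA4, and PSMG4 holds GAAAGCGAAA too. Some genes have several annotated starts, and a gene counted if any of its windows matched. In the second comparison the 6 carriers did not share a direction, and by the authors' deposited table ran from -0.41 for PSMG4 to 0.43 for PSME2. In the first comparison only PSMA4 among them was below 0, with -0.19 by the authors' deposited table. By the same table PSMB4 had 0.086, PSMG4 and PSME2 each 0.13, PSME1 0.34 and PSMB10 0.40. The carriers' median there was 0.127, against -0.051 over the 43 members, a difference that was not tested. In the second comparison their median was -0.035, against -0.059 over the 43 members. TGACNNNGC was found for 13 of the 37 (35.1%, against 19.7% of the 8633 genes) and CCAAT for 18 (48.6%, against 44.1%). The TGACNNNGC carriers had medians of -0.045 (first) and 0.127 (second), and the CCAAT carriers of -0.106 and -0.072. None of these differences was tested. A match to a pattern describes the letters and is not a measured site.

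Other interferon and antigen processing genes, which are known to be induced with PSMB10, PSME1 and PSME2, were read beside them. In the first comparison 0 of 12 rose or fell, with a median of 0.021. TAP1, the peptide transporter, had the top value of 0.41 in the authors' deposited table. Next to PSMB10 at 0.40 in that comparison, IRF1, a transcription factor of the interferon response, was at 0.14 in the authors' deposited table. In the second comparison 0 of 12 rose, and HLA-B, which presents peptides, was among those that fell, at -0.59 in the authors' deposited table. Over all genes there, 2.33% rose and 5.59% fell. IRF1 had a log2 value of -0.36 there in the authors' deposited table. The listed genes did not share 1 direction in either comparison, with 6 of 12 above 0 in the first and 8 of 12 in the second.

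Genes that control proteasome transcription were measured alongside. NFE2L1, the factor that drives subunit genes when proteasomes fail, was at 0.18 (first) and 0.063 (second) in the authors' deposited table. NFE2L2, its relative in the oxidative stress response, had log2 values of 0.19 and 0.26 in the authors' deposited table. Over the 10 regulators with values, 0 rose or fell in the first comparison, where the median was 0.027. In the second comparison 1 fell, VCP, at -0.57 in the authors' deposited table, the ATPase that extracts NFE2L1 from the endoplasmic reticulum. The median there was -0.11, and 5.59% of all genes fell. NGLY1 and DDI2, which process NFE2L1, were at 0.084 and -0.24 in the first comparison of the authors' deposited table. In the second comparison of the authors' deposited table they were at -0.10 and -0.19.

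Proteins that bind or build the proteasome but have other symbols were described the same way. Of these 11 genes, 1 fell in the first comparison: FAM192A, a partner of PSME3, at -0.65 in the authors' deposited table. The share of all genes that fell there was 2.04%. UCHL5, a deubiquitinase of the regulatory particle, was at -0.40 in the authors' deposited table. ADRM1, the ubiquitin receptor that holds UCHL5, had the top value of 0.15 in the authors' deposited table. The median was -0.027. In the second comparison 1 of the 11 rose, the ubiquitin ligase UBE3C at 0.53 in the authors' deposited table, and 0 fell, with a median of 0.094. There 2.33% of all genes rose and 5.59% fell. POMP, which completes the barrel with the PSMG chaperones, was at -0.18 (first) and 0.20 (second) in the authors' deposited table. SHFM1, a small lid subunit, had log2 values of -0.19 and 0.079 in the authors' deposited table.

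Upstream and related machinery is given for scale. Of 13 ubiquitin genes, activating enzymes and shuttle factors, 0 rose or fell in either comparison, with medians of 0.00051 and -0.037. UBQLN2, a shuttle factor, had the lowest value of these in the second comparison, -0.43 in the authors' deposited table. The COP9 signalosome is a relative of the lid. Its 9 genes had medians of -0.080 and 0.050, and COPS7A alone fell, at -0.99 in the second comparison of the authors' deposited table. In that comparison 5.59% of all genes fell. For the 8 CCT chaperonin genes, which encode another ring of related subunits, medians were -0.12 and 0.073, and 0 rose or fell. For 76 cytosolic ribosomal protein genes the medians were 0.25 and 0.12, where the proteasome members had -0.051 and -0.059. No difference between these lists was tested.

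**Figure D4:**
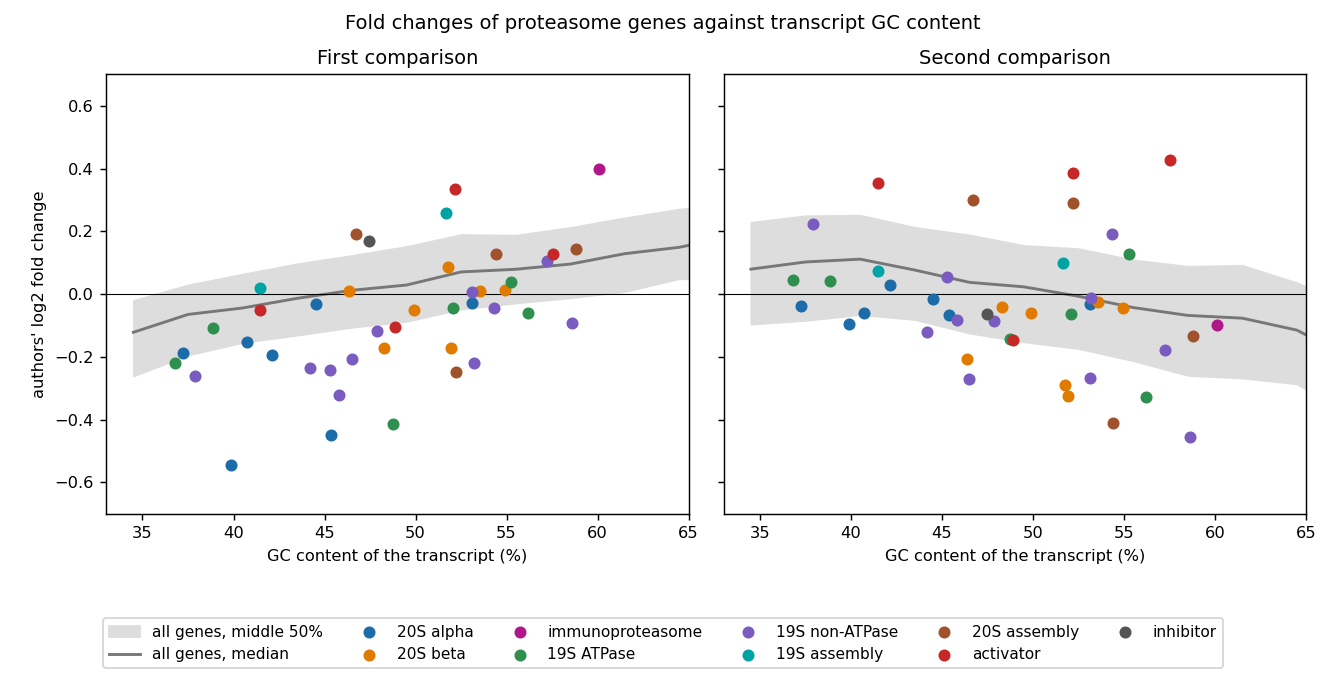
Authors' log2 fold change (y axis) against GC content of the reference transcript (x axis, percent) for the 43 proteasome genes, coloured by role, in the first (left) and second (right) comparison; the grey line and band are the median and middle 50% of 10581 genes by GC content. All-gene medians go up with GC content in the first comparison and mostly down in the second, and PSMA2 at 39.9% GC lies below the band in the first.

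Fold changes moved with base composition, among the members as among all genes. GC content of the transcripts ranged over the members from 36.8% for PSMC6 to 60.1% for PSMB10. Across the 43 members Spearman's rho of the first comparison with GC content was 0.54, against 0.39 across 10581 genes. In the second comparison it was -0.24 and -0.28. For the first minus the second it was 0.55 and 0.47. With transcript length, rho across the members was -0.33 (first), 0.21 (second) and -0.41 (first minus second). Across the 10581 genes it was -0.063, 0.11 and -0.13. These points share their libraries and are not independent. Of the 21 members with the lower GC content, 17 were below 0 in the first comparison (median -0.19), against 10 of the other 22 (median 0.0095). After adjustment of all genes for GC content and length, the median of the members in the first comparison was -0.036, against 0.032 over the 10581 genes. PSMA2 then stood at -0.42 and PSMB10 at 0.32. For the first minus the second the adjusted median was -0.00109, where the unadjusted one was -0.050. The parts of GC content and length in the members' values were not separated, or tested beyond this.

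Sequence sites in 3′ untranslated regions were looked up because carriers of certain 7-base patterns had lower values than other genes in earlier work on these data. The patterns were AATCTAA or CAATCTA for the first comparison and GTGACTT or TGACTTA for the second. They were picked from the same values, so carriers give no independent evidence. Among 42 members with an untranslated region of at least 50 bases, 2 carried a pattern of the first comparison (4.76%, against 14.4% of 10422 genes). For the second comparison 3 of 42 did (7.14%, against 20.9%). These shares were not adjusted for length, and a shorter region has fewer places for a pattern. Transcripts of the members were shorter, with a median of 1580 bases against 3268 over 10581 genes. The sites, 27 bases each from GENCODE 29 on GRCh38 with the patterns in capitals, show which members hold one.
PSMA5, chr1:109401008-109401034, minus strand: acagatgaagAATCTAAtgctgtgtgc
PSMG4, chr6:3267968-3267994, plus strand: tgaagactgtAATCTAAgagtttcaat
PSMD3, chr17:39997749-39997775, plus strand: tccccagccgGTGACTTActgtacagc
PSMC6, chr14:52727912-52727938, plus strand: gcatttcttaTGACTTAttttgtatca
PSME3, chr17:42842072-42842098, plus strand: gccctggtgaTGACTTAgggcttccca
PSME3, chr17:42842878-42842904, plus strand: tgtctgtttcTGACTTAtttttcctgt

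PSMD3, whose site joins both patterns of the second comparison, was also the lowest member there, at -0.46 in the authors' deposited table. PSMC6 and PSME3, with TGACTTA, were at 0.045 and -0.14 in that comparison of the authors' deposited table. The carriers for the first comparison were at -0.19 (PSMA5) and 0.13 (PSMG4) in the authors' deposited table. PSMA2, PSMA1 and PSMC1, the 3 lowest members of the first comparison, hold neither of its patterns in the transcripts searched.

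Some member rows can hold reads of other genes. Exons of 15 members overlap those of another annotated gene, and 8 of these overlap 1 with a value of its own. No source used here says whether the counting was strand-specific. PSMC1 shares 3654 bases with NRDE2 on the opposite strand, which in the authors' deposited table, as C14orf102, was at -0.031 (first) and 0.068 (second). PSMG2 shares 289 bases with CEP76, at 0.14 and 0.68 in the authors' deposited table. PSMA2 shares 24 bases with MRPL32, at -0.21 and -0.046 in the authors' deposited table, and PSME2 shares 21 bases with RNF31, at 0.14 and 0.13 in the authors' deposited table. CEP76, MRPL32 and RNF31 also lie on the opposite strand. Longer overlaps on the same strand are with annotated genes that have no value of their own. They cover 919 bases of PSMA6, 801 of PSMA1, 781 of PSMA2 and 374 of PSMB10. PSMD9 shares 436 bases with WDR66 and 391 with AC069503.2 in this way. Processed copies are a second source: RefSeq names 52 pseudogenes after 21 of the members, 13 of them after PSMC1, 6 after PSME2 and 3 after PSMA2. The share of reads from either source was not tested.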

How the data were processed

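Poly(A) RNA of 3 HEK293 libraries, 1 per group, was sequenced on an Illumina HiSeq2000 after TRIzol extraction and TruSeq library preparation, per the labels' protocols. Per the submitters' processing notes, the build was hg19, and the tools were TopHat2 2.06, SAMtools, CASAVA 1.8.2, Cuffdiff 2.1.1 and Cufflinks, whose roles are not stated. The authors deposited log2 fold changes for 12040 genes, in a table with no header. Both were the log2 ratio of 2 levels with 1 added to each (largest deviation 5e-12 over all genes). This shrinks the values of genes with low levels, and all 12040 genes had a denominator above 1. The 3 columns of levels could be tied to no sample by name, and served only that arithmetic test. With no counts in the table, depth and its precision are unknown.

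Members and lists were chosen with earlier results of these data known. All 43 members were named, with DICER1 and DROSHA, and of each related list the highest and lowest genes, those past 0.5, and others chosen after their values were seen (the rest of those named in the text). Some genes of the related lists are not reported here. Values were summarised in Python 3.11.15 with pandas 2.3.3, numpy 2.4.6 and scipy 1.17.1. For the adjustment, fold changes of the 10581 genes matched by symbol to a GENCODE 29 protein-coding transcript were fitted by least squares on GC content and log10 length, each with a squared term, a step tested on simulated data. The alternatives were other fold thresholds, the mean, re-centring, core subunits only, this adjustment and, chosen after seeing the data, leaving out members with overlapping exons.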

Additional observations from a re-analysis of the deposited data

How the results depend on the processing

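With 1 library per group, no library could be left out, and depth sets no limit that can be stated. No paired analysis was possible because each group has 1 library. The medians of the first and second comparison, -0.0514 and -0.0593, stayed below 0 under every alternative run. By the mean they were -0.0683 and -0.0351, re-centred on all genes -0.0818 and -0.0656, and adjusted for GC content and length -0.036 and -0.0535. Without the 15 members whose exons overlap another gene they were -0.0561 and -0.0518, and with core subunits only the first was -0.118. For the first minus the second, the median of -0.0501 was -0.0332 by the mean, -0.0747 re-centred, -0.0872 with core subunits and -0.00109 adjusted, and turned to 0.00585 without members with overlapping exons.

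The 1 member past 0.5 in the first comparison, PSMA2, was lost at a threshold of 1 and after adjustment, each of which left 0. Leaving out members with overlapping exons also left 0, but PSMA2 is itself among those left out. That count therefore says nothing about its value. At 0.25, 8 members passed in the first comparison, 12 in the second and 17 in the first minus the second. In the first, 6.98% of members passed on the high and 11.6% on the low side, against 12.3% and 9.31% of all genes. In the second these shares were 11.6% and 16.3%, against 15% and 18.2%. For the first minus the second they were 18.6% and 20.9%, against 23.7% and 18.1%. Of the 2 members past 0.5 in that difference, 0 were left at a threshold of 1 and 0 among the core subunits. Adjustment left 1 of the 2, PSMG2 at -0.567, with PSMG4 then at 0.480. Leaving out members with overlapping exons left the other, PSMG4, because PSMG2 is itself among those left out. Re-centring made the count 3.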
